A study of Mus musculus with 13 samples.

Results

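The genes described here are 8 cholangiocyte and progenitor genes, Sox9, Krt7, Krt19, Epcam, Spp1, Cldn4, Cftr and Prom1, which were chosen by name from 27141 genes in the count table of cultured damaged mouse hepatocytes (dHeps). All 8 passed the filter on low counts, which kept 19884 genes. The dHeps carried a wild-type (WT) genotype and were isolated by collagenase perfusion from mice with chronic carbon tetrachloride (CCl4) injury. They were kept for 16 days in serum-free Hepatocyte Maintenance Medium with the solvent DMSO alone, or with the cocktail 5C. 5C holds the ROCK inhibitor GSK429286A, the protein kinase D inhibitor CID755673, the AMPK activator ETC-1002, the adenylate cyclase activator forskolin, and Salidroside, a plant glycoside. In 5C-G, 5C-C, 5C-E, 5C-F and 5C-S, GSK429286A, CID755673, ETC-1002, forskolin or Salidroside was left out of 5C in that order, and the other compounds stayed in. Each group had 2 RNA-seq libraries, called A and B, except 5C-S with 1 library.

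Cholangiocytes line the bile ducts, and a ductal program is shared with the progenitor-like cells that appear when the liver is injured. Sox9 is a transcription factor of this program, and Krt7 and Krt19 are intermediate filament proteins of duct cells. Epcam is an epithelial adhesion molecule, Cldn4 a tight junction claudin, Prom1 a membrane glycoprotein used as a progenitor marker, Cftr the apical chloride channel of ducts, and Spp1 (osteopontin) a secreted matrix protein of duct cells that macrophages also make. Hepatocytes in injured liver can take up parts of this program, so these genes are read in cultures of hepatocytes as well as in ducts.

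The 8 genes covered a wide range of levels in these cultures, given here as FPKM (fragments per length of gene and size of library), a scale that allows genes to be compared per length. Spp1 lay between 1318 and 3243 FPKM, which placed it between rank 5 and rank 20 of all genes in a library. Krt19 followed with 68.0 to 223.7 FPKM and Krt7 with 23.6 to 52.5 FPKM. Cldn4 (0.121 to 35.0 FPKM), Epcam (0.249 to 24.6 FPKM), Sox9 (2.54 to 14.0 FPKM) and Prom1 (0.366 to 3.79 FPKM) lay lower, and Cftr never passed 0.446 FPKM, a count of 134. Sctr, the secretin receptor of ducts, did not pass 0.720 FPKM either, while other duct genes such as Tspan8 (29.5 to 167 FPKM) and Cldn3 (33.3 to 115.3 FPKM) were well expressed.

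Total counts per library ran from 30195867 to 45491932. The labelled cell type was hepatocytes, and Alb, the main plasma protein made by hepatocytes, lay between 2122 and 18255 FPKM. The cultures also held transcripts of other cells, as seen in the mesothelial genes Msln (140.3 to 455.7 FPKM) and Upk3b (105.6 to 239.0 FPKM). The summed FPKM of 10 macrophage markers ran from 308.5 to 340.3 in 5C and from 3238 to 4988 in 5C-G. The summed FPKM of 7 endothelial markers ran from 29.9 to 61.2, held mainly by Eng (17.9 to 57.8 FPKM) and Kdr (3.10 to 23.0 FPKM), while Pecam1 and Cdh5 did not pass 0.117 and 0.262 FPKM. Cholangiocytes and mesothelial cells can both express Krt7 and Krt19, and in such bulk samples fewer cells of a type and less RNA per cell cannot be told apart. Library 5C-G B stood apart from 5C-G A in Epcam, Cldn4, Cftr and Prom1, as described below, and for the comparison of 5C-G with 5C values are also given with each of the pair left out.

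In GRCm39 with the GENCODE M39 annotation, all 8 are protein-coding genes. On chromosome 5 lie Prom1 (chr5:44150962-44259395, minus strand), Spp1 (chr5:104582165-104589235, plus strand) and Cldn4 (chr5:134973973-134975788, minus strand). On chromosome 11 lie Krt19 (chr11:100031636-100039491, minus strand) and Sox9 (chr11:112673009-112678586, plus strand). Cftr lies at chr6:18170686-18322767, Krt7 at chr15:101308924-101328194 and Epcam at chr17:87943407-87958557, all on the plus strand.

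**Figure D1:**
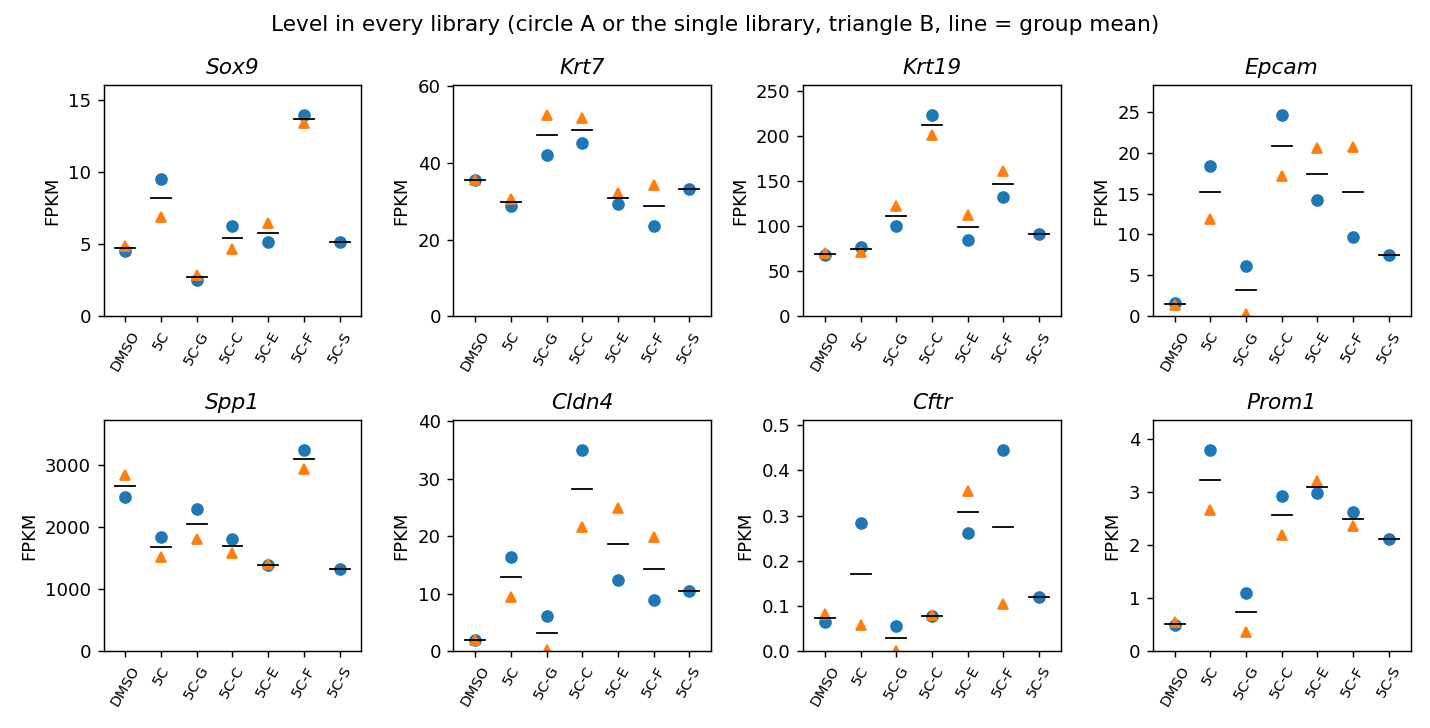
Level of each of the 8 genes (FPKM, linear axis from 0) in every library of the 7 groups, where circles are library A or the single library, triangles are library B and lines are group means. Epcam, Cldn4 and Prom1 were low in DMSO and in 5C-G B, and in 5C-G A they lay between DMSO and the other groups. Sox9 and Spp1 were highest in 5C-F, and Krt19 was highest in 5C-C at 201.7 and 223.7 FPKM.

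Sequences upstream of 3 genes are shown because each stands for a different pattern over the conditions. Cldn4 stands for the genes that were low in DMSO and in library 5C-G B. Krt19 stands for the keratin that was higher without CID755673, and Spp1 for the abundant gene whose level was highest without forskolin. Each is the 250 bases before the annotated start of the canonical transcript (GENCODE M39, GRCm39), on the strand of the gene, and no annotated exon lies in these windows. Capitals mark matches on either strand to ACAATG or ACAAAG (SOX), GGAATG (TEAD) and TGACG (a short cAMP response element). The windows are chr5:134975789-134976038 on the minus strand for Cldn4, chr11:100036947-100037196 on the minus strand for Krt19, and chr5:104581915-104582164 on the plus strand for Spp1.
Cldn4: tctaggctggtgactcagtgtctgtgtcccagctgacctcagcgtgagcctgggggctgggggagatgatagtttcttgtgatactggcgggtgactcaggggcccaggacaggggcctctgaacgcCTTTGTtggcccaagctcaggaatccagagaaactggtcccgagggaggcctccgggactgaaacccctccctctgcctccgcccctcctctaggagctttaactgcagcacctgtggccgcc
Krt19: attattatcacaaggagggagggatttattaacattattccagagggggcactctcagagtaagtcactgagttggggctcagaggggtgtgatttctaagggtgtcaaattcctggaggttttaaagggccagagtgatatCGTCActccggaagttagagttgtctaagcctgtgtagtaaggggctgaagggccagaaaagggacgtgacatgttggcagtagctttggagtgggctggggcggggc
Spp1: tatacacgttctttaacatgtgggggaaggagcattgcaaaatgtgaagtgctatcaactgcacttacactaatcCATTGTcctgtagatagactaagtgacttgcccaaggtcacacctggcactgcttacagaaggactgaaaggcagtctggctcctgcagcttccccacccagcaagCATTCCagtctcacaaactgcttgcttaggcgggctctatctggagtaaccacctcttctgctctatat

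Among the windows of all 8 genes, the SOX letters occurred in 3 (Cldn4, Prom1 and Spp1, at 123, 97 and 175 bases before the start), against 23.7% of the windows of 21770 coding genes. The TEAD letters occurred in 1 of 8 (Spp1, 69 bases before the start) against 12.1%, and TGACG in 2 of 8 (Krt19 and Sox9, at 108 and 119 bases) against 18.0%. The RBPJ letters TGGGAA were in 0 of 8 windows against 22.7%, and the full cAMP response element TGACGTCA in 0 of 8 against 1.69%. A loose SRF pattern (CC and GG with 6 bases between them), which overlaps the SOX match of Cldn4, was in 6 of 8 against 68.6%. All were searched on both strands. These matches describe the letters of the windows only.

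The first comparison asked which of the genes 5C changes relative to its solvent. Epcam and Prom1 rose with 5C, and Sox9, Cldn4 and Cftr had higher means without passing the test. A call here is an adjusted p under 0.05 with a log2 fold change beyond 1 in edgeR's quasi-likelihood test over all genes tested. By this rule 2 of 8 genes were called, both higher, against 4.55% of all genes called in this comparison and 1.66% called higher. The median log2 fold change was 0.93 over the 8 genes and 0.0077 over all genes tested.

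Epcam lay at 1.63 and 1.39 FPKM in DMSO and at 18.4 and 11.9 FPKM in 5C. Both 5C libraries were above both DMSO libraries, with a log2 fold change of 3.24 (SE 0.73, edgeR adjusted p = 0.00918). The call was lost when a DMSO library was left out (adjusted p = 0.0928 without A and 0.113 without B), without 5C A (0.0677) and with limma on log2(FPKM + 0.1) (0.0841), while leaving out a library kept the fold change between 2.92 and 3.52. Prom1 lay at 0.488 and 0.541 FPKM in DMSO and at 3.79 and 2.65 FPKM in 5C. Its groups did not overlap either, and its log2 fold change was 2.57 (SE 0.35, edgeR adjusted p = 8.44e-05).

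Cldn4 had the same layout as Epcam, at 1.93 and 1.85 FPKM in DMSO and at 16.3 and 9.41 FPKM in 5C. Its 5C libraries differed more from each other, and the log2 fold change of 2.69 (SE 0.79) just missed the threshold (edgeR adjusted p = 0.0542). With library 5C-G B left out of the shared fit, an alternative chosen after seeing the data, the Cldn4 fold change was again 2.69 and the adjusted p was 0.000213, so that it was called. Cftr lay at 0.0634 and 0.0826 FPKM in DMSO and at 0.284 and 0.0587 FPKM in 5C, so that its groups overlapped (adjusted p = 0.627).

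Sox9 stood at 4.56 and 4.90 FPKM in DMSO and at 9.54 and 6.91 FPKM in 5C, without overlap, and its difference of 0.72 on the log2 scale (SE 0.22) missed the threshold (edgeR adjusted p = 0.0611). Both keratins were near their solvent level. Krt7 was 35.7 and 35.6 FPKM in DMSO and 28.9 and 30.6 FPKM in 5C (log2 fold change -0.33, SE 0.19), and Krt19 was 68.0 and 70.5 FPKM in DMSO and 77.1 and 71.9 FPKM in 5C (0.03, SE 0.19). Spp1 was lower in both 5C libraries, at 1842 and 1517 FPKM against 2488 and 2845 FPKM in DMSO. Its log2 fold change of -0.74 (SE 0.16) had an edgeR adjusted p of 0.00535 but stayed under the fold threshold. Beside it, 9 of 10 macrophage markers were called lower in 5C and 0 higher (median -2.96), with sums of 2625 to 2633 FPKM in DMSO and 308.5 to 340.3 FPKM in 5C, and their part in the Spp1 values was not tested.

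Other biliary genes were read from lists that hold none of the 8 genes. Of 18 genes of biliary transport, surface and structure, 7 rose with 5C and 0 fell, with a median log2 fold change of 1.08, against 1.66% of all genes called higher. Dcdc2a, a ciliary doublecortin protein, rose by 3.80 (edgeR adjusted p = 8.57e-05) and the claudin Cldn7 by 2.99 (0.0147), both as log2 fold changes. Dcdc2a did not pass 1.98 FPKM in any library. Of 9 biliary transcription factors 3 rose and 0 fell, namely the epithelial factors Grhl2 (3.21, adjusted p = 0.0233), Ehf (3.01, 0.0464) and Elf3 (2.11, 0.0123). Levels of Grhl2 were low, at 0.0064 to 0.522 FPKM over all libraries (counts of 2 to 151). None of 12 Notch pathway genes was called in edgeR (0 of 12), against 4.55% of all genes called in either direction.

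**Figure D2:**
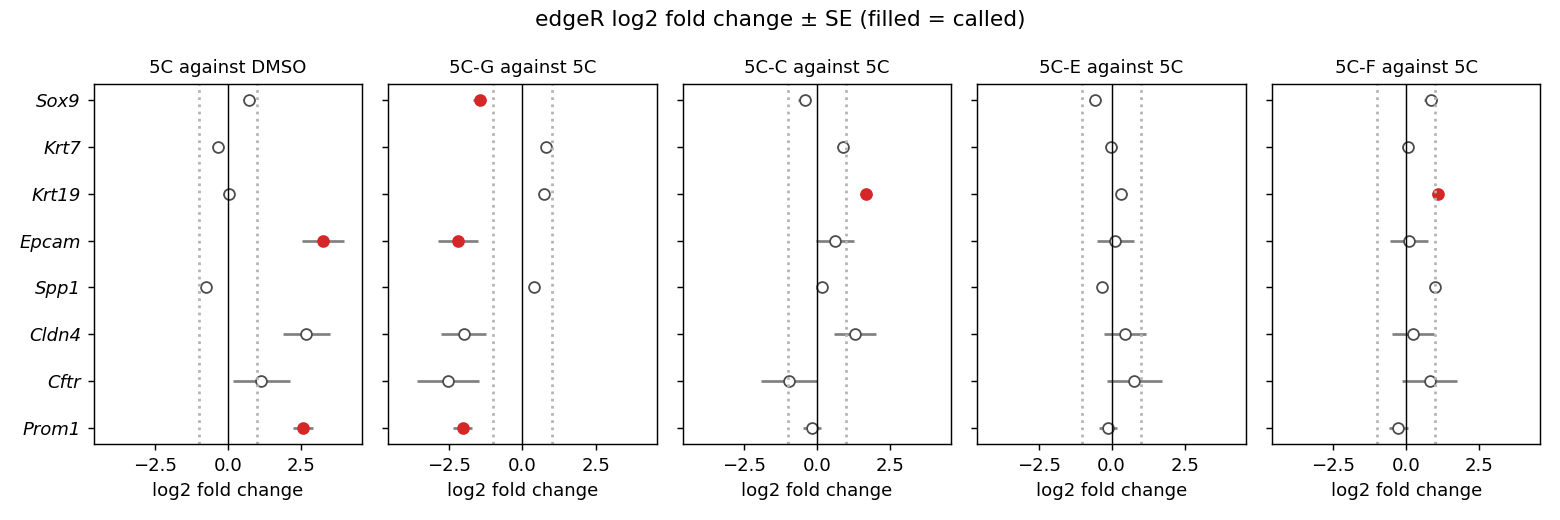
edgeR log2 fold changes of the 8 genes with SE bars in 5 comparisons, where filled points are called and dotted lines mark a log2 fold change of 1 in either direction. Epcam and Prom1 were called higher in 5C and lower in 5C-G, Sox9 was called lower in 5C-G, and Krt19 was called higher in 5C-C and 5C-F.

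Each compound was then removed from 5C. These comparisons share the 5C libraries with each other and with the comparison to DMSO, so each gives its own values. Removal of the ROCK inhibitor GSK429286A lowered Sox9, Epcam and Prom1, whereas both keratins had higher values. In all, 3 of 8 genes were called and all 3 were lower, against 13.1% of all genes called and 5.64% called lower. The median over the 8 genes was -1.73, and -0.0064 over all genes tested.

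Sox9 was 2.54 and 2.88 FPKM in 5C-G, below the lower 5C library at 6.91 FPKM, with a log2 fold change of -1.46 (SE 0.22, edgeR adjusted p = 0.000212). This was -1.29 without 5C-G A and -1.65 without 5C-G B. Sox9 values of the 2 libraries were close and lay below both DMSO libraries too (log2 fold change -0.73 against DMSO, adjusted p = 0.0362, under the fold threshold). Prom1 was 1.09 and 0.366 FPKM in 5C-G, and both libraries were under both 5C libraries. Its log2 fold change was -2.05 (SE 0.34, edgeR adjusted p = 0.000384), and it lay between -2.91 and -1.52 when any 1 library of the comparison was left out.

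For Epcam and Cldn4, the 2 libraries without GSK429286A did not resemble each other. Epcam was 6.10 FPKM in 5C-G A, a count of 431, and 0.249 FPKM in 5C-G B, a count of 20. Cldn4 was 6.04 FPKM (353 counts) in A and 0.121 FPKM (8 counts) in B. For both genes, A lay above and B below the DMSO libraries, and both lay below the 5C libraries. Epcam had a log2 fold change against 5C of -2.20 (SE 0.69, edgeR adjusted p = 0.0254), which was -5.69 without 5C-G A and -1.27 without 5C-G B (adjusted p = 0.0430). Epcam lost its call with DESeq2 (-2.22, adjusted p = 0.0936), without 5C A (-1.87, 0.138) and in a fit of these groups alone (-2.20, adjusted p = 0.114). Cldn4 had a log2 fold change of -2.01 (SE 0.77, adjusted p = 0.0638), which was -6.49 without 5C-G A and -1.04 without 5C-G B. Cldn4 was called with limma on log2(FPKM + 1) (adjusted p = 0.0372) and on log2(FPKM + 0.1) (0.0454). It was also called in edgeR with an offset for G and C content and length (-2.45, adjusted p = 0.0247) and with no filter on low counts (-2.07). Without 5C-G A, 6 of 8 genes were called, against 19.9% of all genes, and without 5C-G B 3 of 8, against 7.07%. Over all leave-one-out fits 2 to 6 were called.

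The gap between these libraries was not shared by all 8 genes. As B minus A on the log2 scale, Cldn4 differed by -5.17, a size that 0.0754% of all genes reached, Epcam by -4.31 (0.191%) and Cftr, with counts of 14 and 0, by -3.11 (1.47%). Prom1 differed by -1.37, a size reached by 11.9% of genes. Krt7 (0.50), Krt19 (0.47), Sox9 (0.36) and Spp1 (-0.16) differed by less, and 3 of these 4 were higher in B. Among the lists, 9 of 18 biliary surface genes and 4 of 9 biliary transcription factors were over 2-fold lower in B and 0 of either list were over 2-fold higher, beside 11.8% of all genes lower and 7.43% higher by that much. Cldn7 (-3.82), Grhl2 (-3.55) and Ehf, with counts of 225 and 0, were among them. Of the cell markers, 0 of 8 for hepatocytes, 0 of 7 for mesothelial cells, 0 of 10 for macrophages, 1 of 10 for stellate cells and fibroblasts and 2 of 6 for endothelial cells were over 2-fold lower in B. Macrophage markers had a median of 0.69, higher in B.

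**Figure D3:**
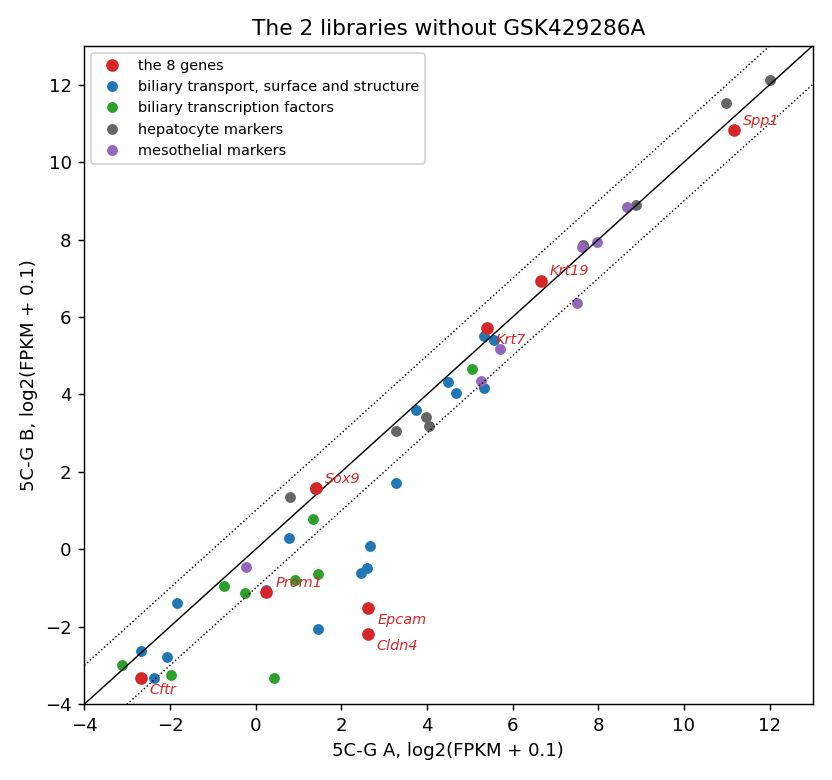
Level in 5C-G B against level in 5C-G A on the scale log2(FPKM + 0.1) for the 8 genes, 2 biliary lists, hepatocyte markers and mesothelial markers, with a solid line at equal level and dotted lines at a 2-fold difference. Epcam, Cldn4 and a set of biliary genes lay far below the line, while Krt7, Krt19, Sox9 and Spp1 lay near it.

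Both keratins and Spp1 had higher fitted levels without GSK429286A, and none of them was called. Krt7 was 42.1 and 52.5 FPKM, above both 5C libraries and both DMSO libraries (log2 fold change against 5C 0.82, SE 0.20, edgeR adjusted p = 0.00575, under the fold threshold). It was 1.04 and called without 5C-G A, and 0.54 without 5C-G B (adjusted p = 0.0853). Krt19 was 100.5 and 122.8 FPKM and also lay above all 5C and DMSO libraries (0.73, SE 0.19, adjusted p = 0.00884). Its fold change was 0.95 without 5C-G A and 0.47 without 5C-G B. In this comparison fold changes of all genes tracked the G and C content of the transcript (Spearman rho = 0.40), as described below for 5C-C. Spp1 was 2286 and 1803 FPKM and overlapped with 5C (0.41, SE 0.15, adjusted p = 0.0605), at 0.33 without 5C-G A and 0.49 without 5C-G B. Of the macrophage markers 9 of 10 were called higher in 5C-G than in 5C (median log2 fold change 3.47). Of the mesothelial markers 1 of 7 was called higher and 1 lower. Hepatocyte markers had 2 of 8 called higher and 3 lower, and stellate cell and fibroblast markers 3 of 10 higher and 1 lower. The part of these cells in the values of the 8 genes was not tested.

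Of the other biliary genes, 11 of 18 surface genes fell without GSK429286A and 0 rose (median -1.34), against 5.64% of all genes called lower. This was 12 without 5C-G A and 6 without 5C-G B (median -0.89), where 10% and 2.86% of all genes were called lower. Dcdc2a changed by -3.82 (adjusted p = 6.63e-05) and Pkhd1, the fibrocystin of primary cilia, by -3.64 (1.11e-05). Pkhd1 was low in both 5C-G libraries, at 0.0565 and 0.0612 FPKM. Of the biliary transcription factors 8 of 9 fell (median -1.88), and in the same refits this was 8 without 5C-G A, against 10% of all genes, and 5 without 5C-G B (median -1.64), against 2.86%. They were led by Onecut1 (-4.15 at counts of 2 and 4, adjusted p = 0.00124), Ehf (-2.69, 0.0268) and Onecut2 (-2.25, 8.99e-06). Without 5C-G B, which had 0 counts of Ehf, Ehf was at -1.69 (adjusted p = 0.0184). In the fetal and injury list, 5 of 10 fell and 1 rose, against 5.64% of all genes called lower and 13.1% in either direction. The fetal growth factor Igf2 was among those that fell, with a count of 2 in both 5C-G libraries and 0.609 and 0.995 FPKM in 5C. The imprinted RNA H19 changed by -3.21 (adjusted p = 2.59e-08) and Tnfrsf12a, the receptor for the progenitor mitogen TWEAK, by 1.70 (0.000927). In the Notch list 1 of 12 was called, against 13.1% of all genes. It was the ligand Jag1 (-1.08, adjusted p = 0.0166), which was at -0.56 without 5C-G B.

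**Figure D4:**
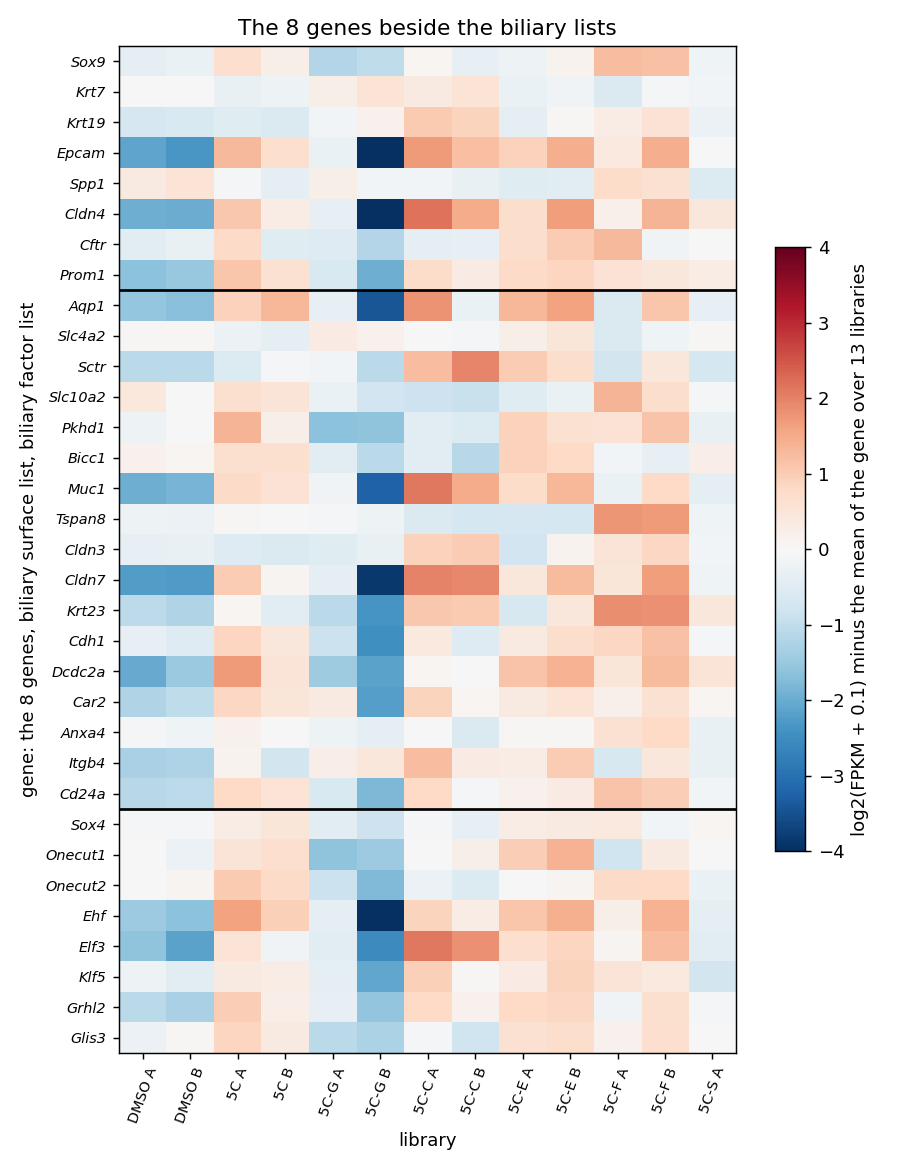
Heat map of the 8 genes and of genes of the biliary surface and transcription factor lists in 13 libraries, coloured by log2(FPKM + 0.1) minus the mean of each gene over the libraries, with the scale ending at 4 in either direction. Epcam, Cldn4 and Prom1 share their low values in DMSO A, DMSO B and 5C-G B with Cldn7, Muc1 and Ehf, whereas Krt7 and Spp1 vary little.

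Against DMSO, 5C-G had 0 of 8 genes called by edgeR, against 5.83% of all genes. DESeq2 and limma also called 0, and 4 of 8 had an unadjusted p under 0.05. Epcam had a log2 fold change of 1.05 (SE 0.71), which was -2.44 without 5C-G A and 1.98 without 5C-G B. For Cldn4 it was 0.68 (SE 0.79), with -3.80 and 1.64 in the same refits. Cftr, whose count in 5C-G B was 0, was at -7.36 without 5C-G A and -0.41 without 5C-G B. Each refit holds 1 library of 5C-G, so its spread comes from the other groups.

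Removal of the protein kinase D inhibitor CID755673 raised Krt19 and left the other 7 genes uncalled. This was 1 of 8 against 20.2% of all genes called and 9.65% called higher, and the medians were 0.40 over the 8 genes and 0 over all genes. Krt19 was 223.7 and 201.7 FPKM in 5C-C, its highest level in any group, and the lower of these exceeded the highest library elsewhere (161.3 FPKM in 5C-F). The log2 fold change against 5C was 1.68 (SE 0.19, edgeR adjusted p = 1.78e-05). Krt7 was 45.3 and 51.8 FPKM, also above both 5C libraries (0.87, SE 0.20, adjusted p = 0.00235, under the fold threshold).

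In this comparison fold changes of all genes tracked the base composition of the transcript (Spearman rho = 0.48 over 15595 coding genes, which are not independent replicates). The trend was not particular to 5C-C, with rho of 0.40 for 5C-G, 0.39 for 5C-E and 0.30 for 5C-F against 5C. The Krt19 transcript has 57.6% G and C, more than 88.7% of coding genes. With an offset for G and C content and length, the Krt19 fold change of 5C-C against 5C was 0.82 (adjusted p = 0.0013), still higher but under the fold threshold. Other keratins of simple epithelia were also higher, in values given without this offset. Krt18 rose by 1.48 (adjusted p = 7.5e-05) and Krt8 by 1.17 (0.000285), while Krt20 was not called. This was 2 of 3 simple epithelial keratins, against 9.65% of all genes called higher. Summed mesothelial markers were 646.8 to 703.8 FPKM in 5C-C and 898.7 to 978.1 FPKM in 5C, with 2 of 7 markers called lower and 0 higher. Of the other markers, 6 of 10 of macrophages were called higher (median 1.47), 3 of 8 of hepatocytes lower, and 1 of 10 of stellate cells and fibroblasts higher and 3 lower. Their part in the Krt19 values was not tested.

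Epcam (24.6 and 17.1 FPKM) and Cldn4 (35.0 and 21.5 FPKM) had their highest means in 5C-C. Cldn4 did not overlap with 5C (log2 fold change 1.30, SE 0.73, edgeR adjusted p = 0.183), a call that was made with 5C-G B left out of the shared fit (1.30, adjusted p = 0.00857). Epcam did overlap (0.62, SE 0.64, adjusted p = 0.49). Sox9 (6.25 and 4.69 FPKM) lay below both 5C libraries without passing the test (-0.43, adjusted p = 0.141). Prom1 (2.92 and 2.19 FPKM), Spp1 (1812 and 1576 FPKM) and Cftr (0.0766 and 0.0791 FPKM) overlapped with 5C. The biliary surface list was mixed, with 3 of 18 called higher and 4 lower, against 9.65% of all genes called higher and 10.5% called lower. Cldn3 rose by 1.67 (adjusted p = 9.23e-05) and the keratin Krt23 by 1.42 (0.0121), and Pkhd1 changed by -1.56 (0.00324). Elf3 rose by 1.91 (0.00393) and Onecut2 changed by -1.22 (0.000902). In the Notch list 2 of 12 fell, near the 10.5% of all genes called lower, namely the receptor Notch1 (-1.64, adjusted p = 0.000452) and Jag1 (-1.49, 0.00154).

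Against DMSO, 4 of 8 genes were higher in 5C-C, against 10.4% of all genes called higher and 22.1% in either direction. Cldn4 had the greatest fold change of the 8 genes (log2 3.98, SE 0.83, edgeR adjusted p = 0.0012). Epcam rose by 3.87 (SE 0.74, adjusted p = 0.000645), Prom1 by 2.40 (6.51e-05) and Krt19 by 1.71 (6.67e-06). With the offset for G and C content and length, Krt19 was at 0.97 (adjusted p = 0.000205), under the fold threshold. Beside these values, 8 of 10 macrophage markers (median -1.43), 5 of 8 hepatocyte markers (median -1.41) and 3 of 7 mesothelial markers were called lower in 5C-C and 0 of these lists higher, and their part was not tested.

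Removal of the AMPK activator ETC-1002 changed none of the 8 genes by edgeR (0 of 8 called, against 1.96% of all genes). DESeq2 and limma called 0 as well, and 2 of 8, Sox9 and Spp1, had an unadjusted p under 0.05. Sox9 was 5.15 and 6.49 FPKM, below both 5C libraries (log2 fold change -0.57, SE 0.22, adjusted p = 0.21). Spp1 was 1380 and 1410 FPKM, also below both (-0.34, SE 0.15, adjusted p = 0.324). Epcam (14.2 and 20.6 FPKM), Cldn4 (12.4 and 24.9 FPKM), Prom1 (2.97 and 3.21 FPKM), Krt7 (29.3 and 32.2 FPKM) and Cftr (0.262 and 0.355 FPKM) overlapped with 5C. Krt19 (85.0 and 112.8 FPKM) lay above it (0.34, SE 0.19, adjusted p = 0.433). Of the biliary surface list 0 of 18 and of the biliary factors 0 of 9 were called. In the same comparison 4 of 8 hepatocyte markers were called lower, with a median of -1.51.

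Against DMSO, 4 of 8 genes were called in 5C-E, against 6.09% of all genes (2.41% higher and 3.68% lower). Epcam (log2 fold change 3.38, edgeR adjusted p = 0.00545), Cldn4 (3.15, 0.0174) and Prom1 (2.44, 0.000124) rose. Epcam lost its call without DMSO A (adjusted p = 0.0585), without DMSO B (0.0741) and with limma on log2(FPKM + 0.1) (0.0549). Cldn4 lost it with DESeq2 (0.0784), the same limma setting (0.129), and without DMSO A (0.140), DMSO B (0.147) or 5C-E B (0.147). Spp1 fell, at -1.08 (SE 0.16, adjusted p = 0.000149), and the call was lost at the fold threshold with total counts (-0.93), both limma settings (-0.93 and -0.93), the offset (-0.94) and without DMSO B (-0.98). Beside these values, 9 of 10 macrophage markers (median -2.55), 7 of 8 hepatocyte markers (median -1.81) and 2 of 7 mesothelial markers were called lower and 0 of these lists higher, and their part was not tested.

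Removal of forskolin was followed by the highest Sox9 and Spp1 levels of the series, but only Krt19 passed both thresholds. This was 1 of 8 against 4.84% of all genes called and 2.69% called higher, and the medians were 0.53 over the 8 genes and -0.011 over all genes. Krt19 was 132.2 and 161.3 FPKM in 5C-F, above both 5C libraries, with a log2 fold change of 1.07 (SE 0.19, edgeR adjusted p = 0.00249). As this lies at the fold threshold, the call was lost with total counts as the only scaling (0.98), with both limma settings (0.96 and 0.97), with the composition offset (0.67), without 5C B (1.05, adjusted p = 0.0565) and without 5C-F B (0.97). The direction held in each.

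Sox9 was 14.0 and 13.4 FPKM in 5C-F, above all other libraries, of which 5C A with 9.54 FPKM came nearest. Its log2 fold change against 5C was 0.84 (SE 0.22, edgeR adjusted p = 0.0223). Spp1 was 3243 and 2936 FPKM, again above all other libraries, with DMSO B nearest at 2845 FPKM. Its log2 fold change against 5C was 0.98 (SE 0.16, adjusted p = 0.0012), and the call was made with DESeq2 (1.00), without 5C A (1.11) and without 5C-F B (1.09). Beside this, 7 of 10 macrophage markers were called higher in 5C-F than in 5C and 0 lower, with summed levels of 946.8 to 1255 FPKM and 308.5 to 340.3 FPKM. Of the hepatocyte markers 2 of 8 were called higher and 0 lower (median 0.87). Their sums were 17231 to 21610 FPKM in 5C-F and 10939 to 10966 FPKM in 5C. In DMSO the macrophage sums were 2625 and 2633 FPKM, and Spp1 of 5C-F against DMSO did not pass (0.24, edgeR adjusted p = 0.338). The part of macrophages and hepatocytes in the Spp1 values was not tested.

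Epcam (9.73 and 20.6 FPKM) and Cldn4 (8.83 and 19.8 FPKM) spread widely between the 5C-F libraries and extended to either side of 5C. Cftr (0.446 and 0.104 FPKM) overlapped with 5C. Prom1 was 2.62 and 2.36 FPKM, under both 5C libraries, and Krt7 was 23.6 and 34.1 FPKM. None of these 5 genes was called. The simple epithelial keratins all rose without forskolin (3 of 3), Krt20 by 2.13 (adjusted p = 5.73e-05), Krt18 by 1.81 (0.000115) and Krt8 by 1.52 (0.000412). Of the biliary surface genes 3 of 18 rose, namely Krt23 (2.17, adjusted p = 0.00453), the tetraspanin Tspan8 (1.83, 1.94e-05) and Cldn3 (1.32, 0.00285). Of the fetal and injury list 2 of 10 rose and 1 fell, with the fetal albumin relative Afp at 1.99 (0.000273). Beside these list counts, 2.69% of all genes were called higher and 4.84% in either direction. Summed mesothelial markers were 639.9 to 642.2 FPKM in 5C-F, below the 5C range, with 4 of 7 called lower. Hepatocyte markers, as given above, had 2 of 8 called higher and 0 lower. The part of these cells in the keratin values was not tested.

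Against DMSO, 5 of 8 genes were called higher in 5C-F, against 3.18% of all genes called higher and 7.4% in either direction. Sox9 rose by 1.56 (SE 0.22, edgeR adjusted p = 0.000203) and Krt19 by 1.10 (0.00094). Epcam (3.34, adjusted p = 0.00545), Cldn4 (2.93, 0.0208) and Prom1 (2.30, 0.000326) rose as well. Epcam lost its call without DMSO A (adjusted p = 0.0614), without DMSO B (0.0648) and with limma on log2(FPKM + 0.1) (0.0550). Cldn4 lost it with DESeq2 (0.0701), both limma settings (0.0529 and 0.135), and without DMSO A (0.146), DMSO B (0.134) or 5C-F B (0.132). Krt19 fell under the fold threshold with the offset (0.82) and without 5C-F B. Spp1 did not pass (0.24, adjusted p = 0.338). Beside these values, 7 of 10 macrophage markers (median -1.16) and 3 of 7 mesothelial markers were called lower and 0 of either higher, and of 10 stellate cell and fibroblast markers 3 were lower and 1 higher. Summed hepatocyte markers were 17231 to 21610 FPKM in 5C-F and 10929 to 12161 FPKM in DMSO, with 1 of 8 called, which was lower. The part of these cells was not tested.

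The single library without Salidroside was not tested, since it has no second library to give a spread of its own. On the log2 scale, 5C-S minus 5C was negative for 6 of 8 genes. Epcam was 7.50 FPKM in 5C-S, under both 5C libraries, a difference of -1.03. Sox9 was 5.18 FPKM (-0.68), Prom1 2.12 FPKM (-0.62) and Spp1 1318 FPKM (-0.36), each also under both 5C libraries. Cftr was 0.121 FPKM (-0.51) and Cldn4 10.5 FPKM (-0.31), both within the 5C range. Krt7 was 33.2 FPKM (0.14) and Krt19 91.7 FPKM (0.28), above both 5C libraries. For comparison, 8.30% of all genes were over 2-fold higher and 10.6% over 2-fold lower in this library, so a difference as large as that of Epcam was not rare.

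Ordered by fitted level over the 6 replicated groups, most neighbours did not differ beyond their spread. The order was read from the same values, so distances between its ends are given with no test, and p-values of steps were not adjusted for the choice of pairs. Sox9 ran from 5C-G through DMSO, 5C-E, 5C-C and 5C to 5C-F, and no neighbouring pair was called, while 5C-G and 5C-F lay 2.30 apart (SE 0.23) on the log2 scale. Prom1 ran from DMSO and 5C-G to 5C-F, 5C-C, 5C-E and 5C, and the step from 5C-G to 5C-F was called (1.79, edgeR adjusted p = 0.00147). Epcam ran from DMSO and 5C-G to 5C, 5C-F, 5C-E and 5C-C with a called step from 5C-G to 5C (2.20, adjusted p = 0.0254). Cldn4 followed the same order as Epcam, and none of its steps was called.

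Krt7 ran from 5C-E, 5C, 5C-F and DMSO to 5C-G and 5C-C, with 0.90 between the ends. Krt19 ran from DMSO, 5C, 5C-E and 5C-G to 5C-F and 5C-C, with 1.71 between the ends. Spp1 ran from 5C-E, 5C, 5C-C and 5C-G to DMSO and 5C-F, with 1.32 between the ends. Cftr ran from 5C-G, DMSO and 5C-C to 5C, 5C-E and 5C-F, with 3.35 between the ends. No neighbouring pair of these 4 genes was called.

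Likeness of pattern was described by Pearson's r of log2 counts scaled to library size over the 13 libraries, with no test, since the libraries share groups and the genes share libraries. Epcam and Cldn4 had r = 0.98, Epcam and Prom1 0.94, and Cldn4 and Prom1 0.89. Krt7 and Krt19 reached 0.59, Krt7 and Cftr -0.77, and Spp1 stayed between -0.39 and 0.33 with the 7 others.

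Over all genes tested, Epcam was most like the potassium channel Kcnk1 (0.987), Grhl2 (0.985) and Cldn4 (0.985), and Cldn4 most like Kcnk1 (0.989), Epcam (0.985) and the protease Mmp7 (0.982). Prom1 was most like the tricellular junction gene Ildr1 (0.971), Mal (0.954) and Dcdc2a (0.951). Sox9 was most like Lurap1l (0.956) and Gprc5c (0.955).

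The keratins and Spp1 had other neighbours. Krt19 was most like Mpnd (0.982), Cd14 (0.977) and Dap (0.974), and Krt7 most like Bcat2 (0.978), Camk1 (0.956) and Aldh3b1 (0.956). Spp1 was most like Cebpg (0.972), the complement gene C9 (0.908) and Got1 (0.904). Cftr, at its low counts, reached 0.892 with Sqle, 0.878 with Rabl3 and 0.876 with Ccdc14.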

How the data were processed

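RNA-seq of 13 libraries in 7 groups was analysed. The authors' processing notes name Subread, featureCounts, DESeq2 and GRCm39, and the handling of strand is not given in the sources used here. The authors deposited whole-number counts per gene and FPKM. The deposited FPKM equalled count over gene length and library total within 1% for 16664 of 16664 genes checked. The study's methods define n as distinct biological replicates. The labels do not tie libraries to animals or cultures, so p-values measure the spread between these libraries. Columns name the group but not the replicate, and letters A and B pair nothing. No pair agreed within sampling noise (chi-square per degree of freedom 8.32 to 93.8). Of the columns with per-sample values, 0 were left unused.

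Counts were tested with edgeR 4.0.16 in R 4.3.3 (TMM, filterByExpr with a minimum count of 10, glmQLFit and glmQLFTest), in 1 fit over all libraries with 6 residual degrees of freedom, and p-values were adjusted by Benjamini-Hochberg over 19884 genes. The study's methods name DESeq, and DESeq2 1.42.0 was run as an alternative, beside limma 3.58.1 on log2(FPKM + 1) and log2(FPKM + 0.1). Tested on simulated data for 5C against DMSO (18718 genes), edgeR recovered 61% of genes changed by 1.5 and 71% of those changed by 3 on the log2 scale.

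The 8 genes and the lists were chosen with earlier results of these data known. All 8 genes are named, with at most 3 called genes of each list per comparison by fold change, and the 3 genes most like each. Some genes that this rule names are not reported here. Annotated lncRNA exons lie opposite Cftr, Krt19, Krt7, Prom1 and Sox9, and another transcript lies along Spp1. Reads of such pairs cannot be told apart.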

Additional observations from a re-analysis of the deposited data

How the results depend on the processing

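No paired analysis was possible because the columns carry no replicate number of the labels. Of 1008 values of single genes under alternatives, 896 kept direction and side of the threshold, 39 lost and 36 gained a call, and 37 changed sign. Of 20 calls, 0 changed sign. The cause was not tested. Low counts limit Cftr. Total counts as the only scaling moved the median gene by -0.13 in 5C-G and -0.16 in 5C-C against 5C, and by 0.15 in 5C-E against DMSO.

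The number of the 8 genes called moved by over 1.5 times as follows. In 5C against DMSO (2 called) it was 1 with limma on log2(FPKM + 0.1), and 1 to 2 leaving out a library, and, a smaller move, 3 under 6 other alternatives. In 5C-C against DMSO (4 called) it also moved less, to 3 with the offset and 6 with no fold threshold. In 5C-G against 5C it was 5 with no filter on low counts, 5 with unadjusted p, 5 with no fold threshold, and 2 to 6 leaving out a library. In 5C-C against 5C it was 2 with no filter, 2 in a fit of the groups compared alone, 2 with no fold threshold, 2 with 5C-G B left out of the shared fit (chosen after seeing the data), 0 with the offset for G and C content and length, and 1 to 2 leaving out a library. In 5C-F against 5C it was 2 with DESeq2, 0 with total counts only, 0 with either limma setting, 3 with no fold threshold, 0 with the offset, and 0 to 2 leaving out a library. In 5C-G against DMSO it was 2 with no fold threshold and 0 to 3 leaving out a library (gene lists without a 5C-G library were chosen after seeing the data). Against DMSO, limma on log2(FPKM + 0.1) gave 1 for 5C-E and 3 for 5C-F, and leaving out a library gave 1 to 4 and 3 to 5.

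Signs changed only in log2 fold changes that were not called in the fit reported, among them Epcam and Cldn4 in 5C-G against DMSO, which were negative without 5C-G A. For Krt7 these were 0.048 (total counts), 0.0036 (no filter), 0.046 and 0.047 (limma) in 5C-E against 5C, and -0.043 (total counts), -0.065 and -0.067 (limma) in 5C-F against 5C. For Epcam they were -0.054 and -0.061 (limma) and -0.090 (offset) in 5C-F against 5C, and -0.12 (limma, 0.1) in 5C-G against DMSO. For Cldn4 they were -0.17 (offset) in 5C-F against 5C, and -0.041 and -0.77 (limma) in 5C-G against DMSO. In 5C-C against 5C the offset gave 0.052 for Cftr and 0.25 for Prom1.

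Leaving out a library gave these ranges where the sign changed. In 5C against DMSO, Krt19 ran from -0.0035 to 0.065 and Cftr from -0.37 to 1.87. In 5C-C against 5C, Cftr ran from -1.65 to 0.55 and Prom1 from -0.37 to 0.087. In 5C-E against 5C, Krt7 ran from -0.092 to 0.073, Epcam from -0.16 to 0.46, Cldn4 from -0.12 to 0.92 and Prom1 from -0.32 to 0.13. In 5C-F against 5C, Krt7 ran from -0.20 to 0.26, Epcam from -0.49 to 0.51, Cldn4 from -0.40 to 0.68 and Cftr from -0.65 to 2.32. In 5C-G against DMSO, Epcam ran from -2.44 to 1.98, Cldn4 from -3.80 to 1.64 and Prom1 from -0.34 to 1.05. In 5C-E against DMSO, Sox9 ran from -0.023 to 0.35.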

Other observations

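The Notch pathway, which patterns bile ducts, had called members in edgeR in 4 of the comparisons with DMSO. In 5C-C 4 of 12 were called lower, against 22.1% of all genes called in either direction, among them Notch1 (log2 fold change -2.18, adjusted p = 3.84e-05), the effector Rbpj (-1.33, 7.87e-05) and Notch2 (-1.30, 8.2e-05). In 5C-G 2 of 12 were called lower, against 5.83% of all genes called, Notch1 (-1.54, adjusted p = 0.00452) and Notch2 (-1.01, 0.00487), and the count of lower genes was 3 without 5C-G A and 0 without 5C-G B (5 of 12 with an unadjusted p under 0.05), where 7.35% and 0.70% of all genes were called lower. In 5C-E 2 of 12 were called higher, against 6.09% of all genes called, Notch3 (1.79, 0.000603) and the ligand Jag2 (1.12, 0.00891), and in 5C-F 1 of 12, against 7.4%, Jag1 (1.1, 0.0242). Jag1 was 8.41 and 8.0 FPKM in 5C-F, above all other libraries.

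Of 10 fetal and injury progenitor genes, 3 were called higher and 1 lower in 5C against DMSO, against 1.66% of all genes called higher and 4.55% in either direction. The 3 called higher were Igf2 (log2 fold change 2.49), H19 and Gpc3. The 1 called lower changed by less than these, and the median over the list was 0.17. H19 was 302 and 313 FPKM in 5C, 62.3 and 49.9 FPKM in DMSO and 30.3 ± 0.42 FPKM (mean ± SD, n = 2) in 5C-G. Gpc3, a fetal surface proteoglycan, was 182 and 196 FPKM in 5C, 60.5 and 65.3 FPKM in DMSO and 56.3 and 51.8 FPKM in 5C-G. Unlike Epcam and Cldn4, both genes had near values in the 2 libraries without GSK429286A.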
